A study of Manis javanica with 3 samples.

Results

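The complement genes of the Malayan pangolin (Manis javanica) were followed in the transcriptomes of 3 tissues. Members were taken from the deposited annotation: genes whose best protein hit in NR was named with the word complement, without those named for a tumor necrosis factor, and genes with the Swiss-Prot symbol CFP, CFI, CFD, MASP1, MASP2, MBL2, CD55, CD59, VTN or CLU. This gave 52 of the 24220 genes in the expression tables, 43 by product name and a further 9 by symbol alone. By their products, 37 of the 52 are components, regulators or receptors of complement, and these are called complement genes here. The other 15 were taken by the wording only, such as DNA repair proteins that complement a defect in cells. No gene carried the symbol MASP1 or MASP2, since these proteases were assigned the symbol C1R, and they are described with the other genes of the pathway.

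An adult female, a wild animal that died during rescue, gave the RNA for 3 libraries, 1 each from liver, salivary glands and small intestine, sequenced to describe the tissues of digestion in an animal that eats ants and termites. The labels list no treatment for any library, and with 1 library per tissue no difference between tissues could be tested against the spread between replicates. The libraries held 10158924, 8318686 and 14568778 counts, and a count of 0 allows up to 0.295, 0.361 and 0.206 CPM (counts scaled to a common library size), in the order small intestine, salivary glands, liver.

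The labels of the tissues were set against marker genes. In the library labelled small intestine, 10 genes of a gastric list had a median level of 862 FPKM (fragments scaled for transcript length and for the mapped fragments of the library, a level per length). There 8 genes of an enterocyte list had a median of 0.0464 FPKM, with FABP2 and LCT at 0. Both lists had members that went the other way. In the same library VIL1 and SLC5A1 of the enterocyte list stood at 24 and 1.94 FPKM. LIPF and GIF of the gastric list stood at 0.539 and 0.872 FPKM. VIL1 was similar in salivary glands and liver, at 25.7 and 21.2 FPKM. The library labelled small intestine is therefore called the intestine-labelled library throughout. For the salivary list 6 of 10 symbols were found, as 7 genes that summed to 168, 212 and 24.7 FPKM, in the order intestine-labelled, salivary glands, liver. AQP5 and PIP were highest in the salivary gland library, at 94.3 and 28 FPKM, but KRT5 and KRT14 were higher in the intestine-labelled library (88.2 and 77.1 FPKM against 55 and 34.9). LPO was under 1 FPKM in every library. BPIFA1 was at 0 in all, as was a gene matched to that symbol whose product is named family A member 3. The 12 genes of a hepatocyte list summed to 262, 581 and 37149 FPKM, and to 134, 176 and 37059 FPKM without a Kunitz inhibitor gene that only shares the symbol AMBP. Both sums still hold a gene matched as TTR but named 5-hydroxyisourate hydrolase-like, at 22.8, 53.1 and 35.1 FPKM. The gene named transthyretin stood at 0.431, 0 and 6.77 FPKM.

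Complement is a cascade of plasma proteins that marks foreign and damaged surfaces. The classical pathway starts when C1q binds antibody on a surface, the lectin pathway when mannose-binding lectin or a ficolin binds sugars, and the alternative pathway turns over slowly by itself and amplifies the others. All of them cleave C3 and then C5, and C5b gathers C6, C7, C8 and C9 into a pore in the membrane. Soluble and membrane-bound regulators hold the cascade back on host cells. Hepatocytes make most of the circulating components, macrophages are a major source of C1q, and adipocytes are the best known source of factor D.

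The liver library held most of the complement RNA. The 37 complement genes took 0.125% of the FPKM of the intestine-labelled library, 0.252% in salivary glands and 1.04% in liver. By counts the shares were 0.152% (95% exact Clopper-Pearson interval 0.150 to 0.155%), 0.358% (0.354 to 0.362%) and 2.30% (2.29 to 2.31%), and these intervals, like all below, cover counting error only. The median complement gene stood at 1.45, 1.92 and 60.8 FPKM, where the median of all genes was 2.16, 1.76 and 1.89 FPKM. An FPKM above 1 was reached by 23, 23 and 33 of the 37, against 59.4%, 56.3% and 57.0% of all genes. All 37 had at least 1 count in liver, where 5013 of all 24220 genes stood at 0 FPKM. Of the 37, 25 had at least 1 count in every library, a share that was not taken over all genes.

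**Figure D1:**
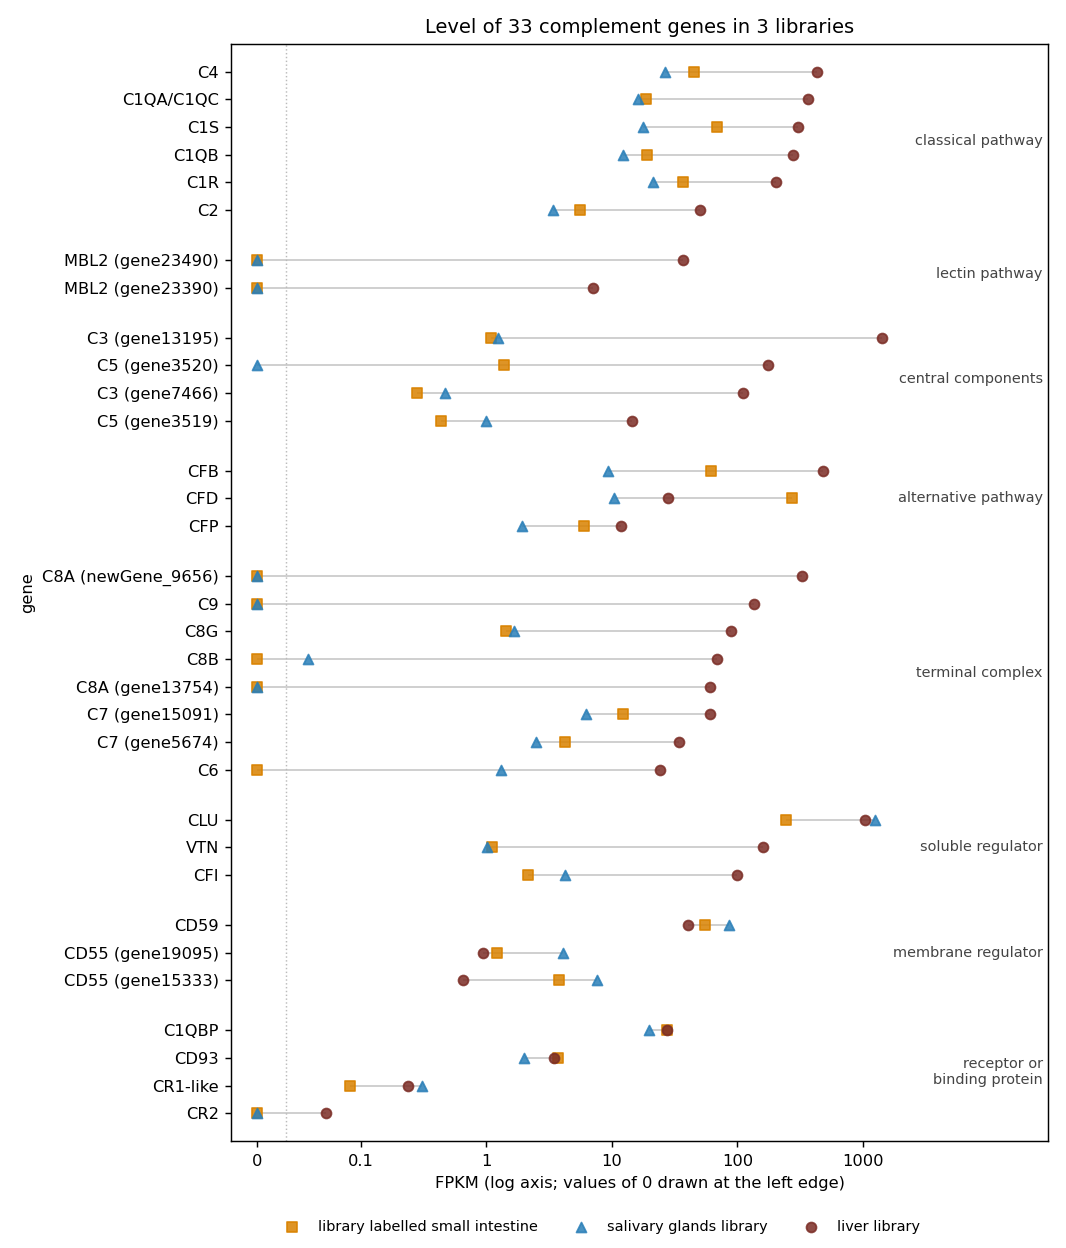
FPKM (log axis, 0 at the left edge) of 33 of the 37 complement genes, grouped by role, in the intestine-labelled (squares), salivary gland (triangles) and liver (circles) libraries. The circles lie furthest right for most components and soluble regulators, while CFD is highest in the intestine-labelled library and CLU, CD59 and both CD55 models are highest in the salivary gland library.

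Fold differences were taken from counts scaled by TMM, which aligns the bulk of genes between libraries, and a gene was called at 2-fold or more, with counts under 3 raised to 3. Of the 37 complement genes, 30 were at least 2-fold higher in liver than in the intestine-labelled library (81.1%), where 20.1% of all 20662 genes with a count in this pair were called in that direction. Against the salivary gland library 29 of 37 were higher in liver (78.4%), beside a background of 21.0%. At 10-fold or more the counts were 21 and 26 of 37, against backgrounds of 3.96% and 4.91%. In the opposite direction 0 of 37 were 10-fold higher in the intestine-labelled library than in liver (background 6.60%) and 1, a model of CD55, in the salivary gland library (background 4.79%). Only CFD and 1 model of CD55 were at least 2-fold higher in the intestine-labelled library than in liver, 5.41% of the complement genes against 23.8% of all genes. CD59 and both models of CD55 were at least 2-fold higher in the salivary gland library than in liver (8.11% against 22.1%). The median log2 fold of the complement genes with over 3 counts in a pair was 4.53 for liver over the intestine-labelled library and 4.39 for liver over the salivary gland library, where all such genes had medians of 0.00 and 0.03. The comparisons share the liver library, so they are not independent. By TMM counts 30 of the 37 were highest in liver, 4 in the salivary gland library (CLU, CD59 and both CD55 models) and 3 in the intestine-labelled library (CFD, CD93 and C1QBP). CD93 and C1QBP were nearly even with liver, at 24.6 against 23.4 and 34.1 against 33 CPM. The 30 include CR2, with 3 counts in all, and a CR1-like gene with 2, 11 and 18 counts. In the same order the numbers were 31, 5 and 1 by library size only, and 29, 5 and 3 by FPKM. The highest library was not counted over all genes, so these numbers have no background beside them.

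Between the intestine-labelled and salivary gland libraries the complement genes were called about as often as other genes. Of the 28 with a count in this pair, 6 were higher in the intestine-labelled library (21.4%, background 18.7%) and 5 in the salivary gland library (17.9%, background 14.9%). The first included C1S, CFB, CFD, CFP and the longer model of C5. The second were CLU, C6, the shorter model of C5, a model of CD55 and a CR1-like gene, and the last of these rested on 2 and 11 counts. At 10-fold or more, CFD and the longer C5 model (2 of 28, background 3.63%) were higher in the intestine-labelled library and C6 (1 of 28, background 1.62%) in the salivary glands. Fewer cells of a type and less RNA per cell cannot be told apart in such bulk libraries.

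**Figure D2:**
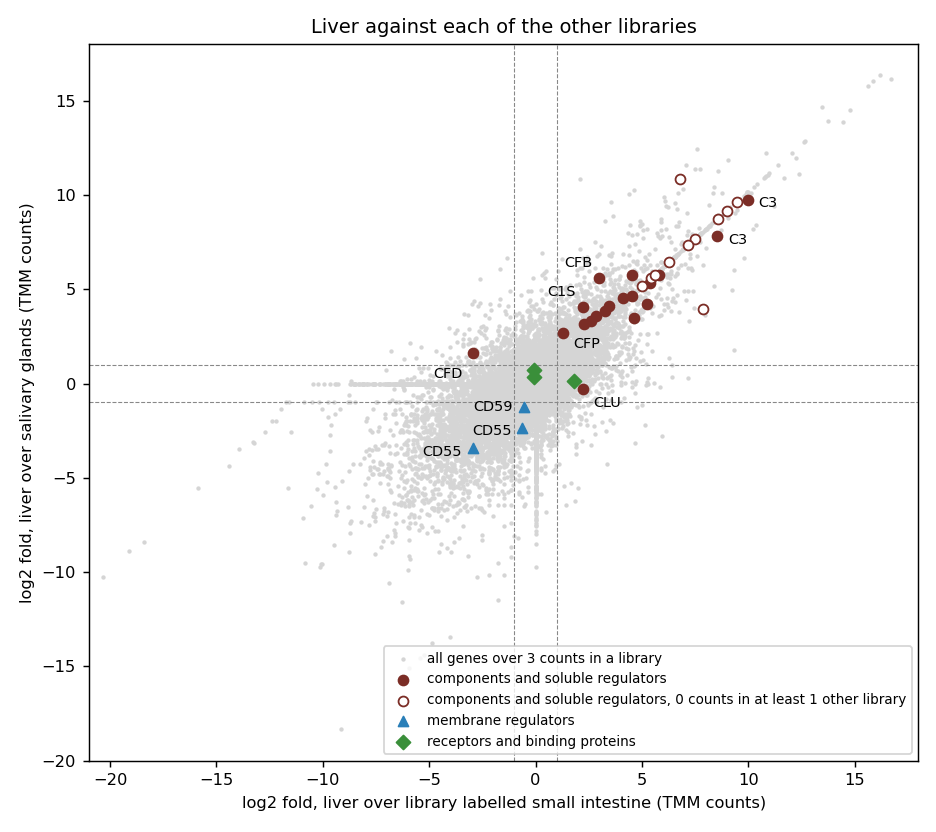
Log2 fold of liver over the intestine-labelled library (x axis) and over the salivary gland library (y axis), from TMM-scaled counts, for all genes (grey) and complement genes by role, with dashed lines at 2-fold. Open circles had 0 counts in at least 1 of the other libraries, and only the fold over a library with 0 counts is a lower bound. Most circles lie at the upper right, while the triangles of the membrane regulators lie at the lower left.

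The make-up of complement RNA differed between the libraries. In liver the summed FPKM was spread over the central components C3 and C5 (26.7%), the soluble regulators (25.7%), the classical pathway (25.3%) and the terminal complex (12.4%). By counts these shares were 48.3%, 13.3%, 26.6% and 3.96%, in the same order. A new C8A gene of 257 bases gave 329 of the 802 FPKM of the terminal complex, from 222 of the 13269 counts of that group. In the salivary gland library 83.2% of complement FPKM belonged to the soluble regulators, and 82.7% to clusterin (CLU) alone. In the intestine-labelled library the alternative pathway took 37.8% of complement FPKM, of which CFD was the larger part, and the soluble regulators took 27.9%. By counts the classical pathway led there with 37.3%, before the alternative pathway with 27.1%. C3 and C5 together came to 0.356% and 0.180% of complement FPKM outside liver. Without CLU, the other 36 complement genes summed to 655 FPKM in the intestine-labelled library, 260 in salivary glands and 5420 in liver, so the order of the libraries outside liver turned round.

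**Figure D3:**
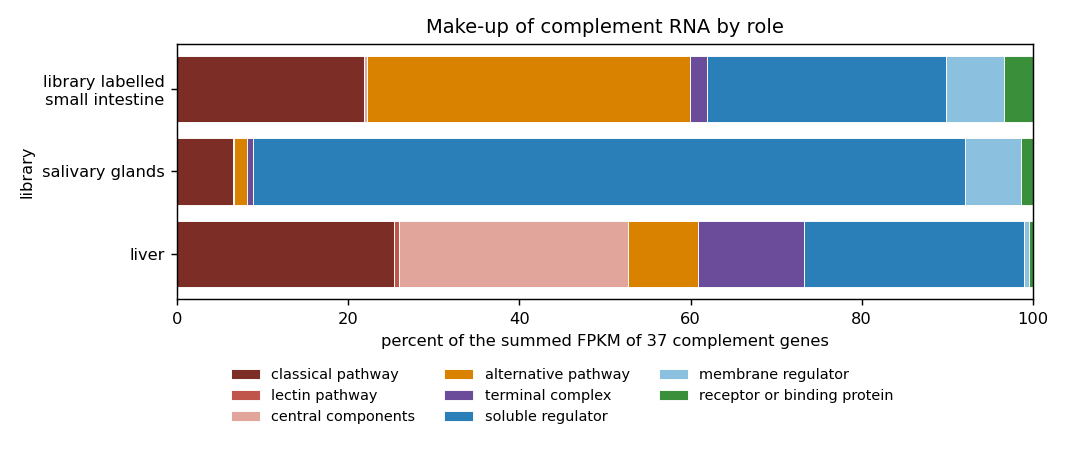
Percent of the summed FPKM of the 37 complement genes held by each role group, with 1 bar per library. The salivary gland bar is mostly soluble regulators (83.2%), and C3 and C5 (central components) form a visible part of the liver bar only (26.7%).

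The classical pathway was expressed in every library and was highest in liver. Its 6 genes were all at least 4.64-fold higher in liver than in the intestine-labelled library and at least 10-fold higher than in the salivary gland library. C1q, the sensor of the pathway, is built from an A, a B and a C chain. The model gene18222 (scaffold NW_016543000.1, 124213 to 135070) has the Swiss-Prot symbol C1QA and an NR hit to the C chain, so these chains were not separated, while RefSeq's table for the assembly MJ_LKY lists C1QA, C1QC and C1QB as neighbours. It stood at 18.7 FPKM in the intestine-labelled library, 16.3 in salivary glands and 367 in liver. The level was similar outside liver and was 23.3-fold higher in liver than in the intestine-labelled library by TMM counts (95% interval 20.8 to 26.1). C1QB, the next gene on the scaffold, stood at 19.1, 12.3 and 276 FPKM in the same order. It followed the same order of libraries, with liver 17.0-fold over the intestine-labelled library (14.8 to 19.7) and 23.6-fold over the salivary glands (20.1 to 27.7).

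Macrophage markers, like C1q, were highest in liver. All 10 genes found for a macrophage list were above 1 FPKM in liver, with a summed level of 232 FPKM, against 43.5 and 53.6 FPKM in the intestine-labelled and salivary gland libraries. Between the other libraries the marker sum was higher in the salivary glands, while by FPKM both C1q models were higher in the intestine-labelled library. CLEC4F, a marker of the resident macrophages of the liver, was at 0 outside liver and at 4.19 FPKM in liver, while CD163 stood at 7.67, 6.96 and 61.0 FPKM. Other markers differed less, with LYZ at 17.3, 14.6 and 30.9 FPKM and CD14 at 12.2, 26.9 and 84.1 FPKM. The part of macrophage number in the C1q values was not tested.

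C1r and C1s are the proteases that C1q activates, and C1s cleaves C4 and C2. C1R (gene22453) stood at 37.2, 21.4 and 204 FPKM and its neighbour C1S (gene22455) at 69.3, 17.6 and 305 FPKM, in the order intestine-labelled, salivary glands, liver. Both were highest in liver, and their folds of liver over the intestine-labelled library were the smallest of the 6 genes: C1S was 4.64-fold higher in liver than in the intestine-labelled library (4.41 to 4.87) and C1R 6.07-fold (5.67 to 6.51). C1S was also 3.56-fold higher in the intestine-labelled than in the salivary gland library (3.23 to 3.92). Fibroblast and endothelial markers moved in the same direction there, with 372 FPKM summed over 11 genes in the intestine-labelled library, 103 in salivary glands and 134 in liver, and their part in the C1S value was not tested. C4, which binds covalently to the marked surface, stood at 45.4, 26.6 and 432 FPKM, and C2, the protease that joins it, at 5.60, 3.41 and 50.2 FPKM. Liver was 11-fold (10.6 to 11.5) over the intestine-labelled library for C4 and 9.61-fold (8.06 to 11.6) for C2.

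C2, CFB and C4 lay on the same scaffold (NW_016530792.1, 43043 to 105162), in an order known from the class III region of the mammalian MHC. Between CFB and C4 lay NELFE, SKIV2L and DXO, genes of transcription and RNA decay. These were 1.04-fold to 3.67-fold higher in liver than in the other libraries, while the complement genes on either side were 8-fold to 49.2-fold higher. Beyond C4, the TNXB gene of the matrix protein tenascin-X stood at 18.1, 4.21 and 0.710 FPKM, lowest in liver.

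**Figure D4:**
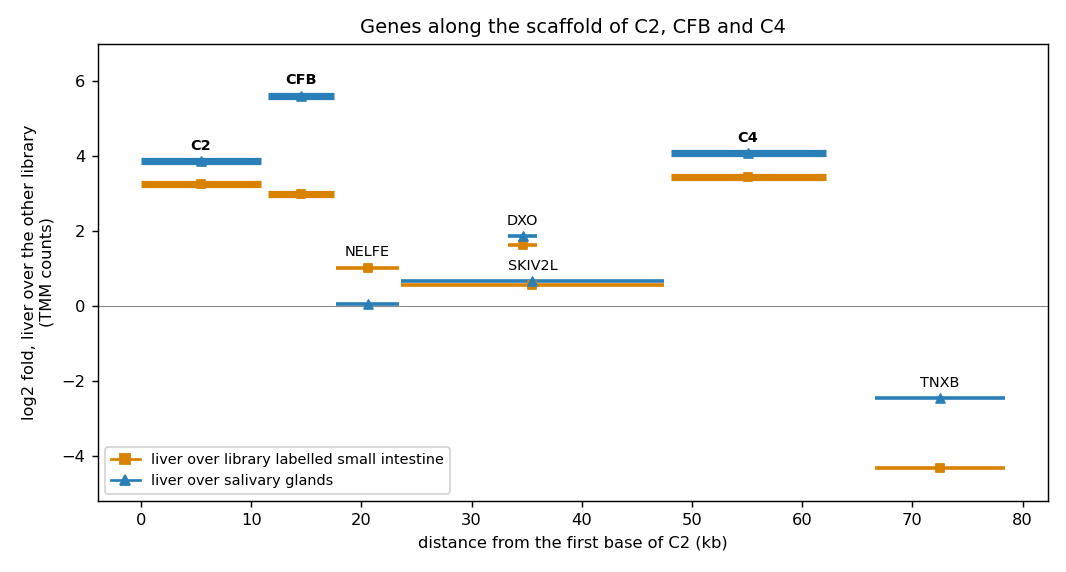
Log2 fold of liver over the intestine-labelled library (squares) and over the salivary gland library (triangles), from TMM-scaled counts, for genes along the scaffold of C2, CFB and C4, with each bar drawn over the span of the gene in kb from the first base of C2. The thick bars of the complement genes lie above those of NELFE, SKIV2L and DXO, and TNXB lies below 0.

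MBL2 was detected in the liver library only. The 2 genes with the symbol MBL2, whose product starts the lectin pathway, had 165 and 918 counts in liver and 0 in both other libraries. Their liver levels were 7.06 FPKM (gene23390) and 37 FPKM (gene23490). For gene23490 liver was at least 181-fold higher than the intestine-labelled library and at least 203-fold higher than the salivary gland library, with 0 counts replaced by 3.

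C3 was the leading complement RNA of the liver. The model gene13195 (scaffold NW_016536768.1, 39875 to 71458) stood at 1.09 FPKM in the intestine-labelled library, 1.24 in salivary glands and 1421 in liver, from 83, 111 and 141689 counts. It took 22% of the complement FPKM of liver, and ranked 40 among all genes there, but 14153 and 13140 in the others. By TMM counts liver was 1008-fold over the intestine-labelled library (813 to 1266) and 848-fold over the salivary glands (704 to 1031). A model on another scaffold, gene7466, also had C3 as its best hit and stood at 0.284, 0.470 and 110 FPKM. The same order held for it, with liver 374-fold (236 to 631) and 222-fold (159 to 321) higher. RefSeq's table for MJ_LKY lists 1 gene C3, and whether gene7466 is a piece, a copy or a relative of C3 was not tested.

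C5, whose cleavage starts the pore and releases the strongest of the anaphylatoxins, lay in 2 models next to each other on the same scaffold and strand (NW_016529237.1, 5509 to 159193). The longer, gene3520, stood at 1.38 FPKM in the intestine-labelled library, 0 in salivary glands and 177 in liver. The shorter, gene3519, stood at 0.437, 1 and 14.5 FPKM. Liver was highest for both. In the salivary gland library all 25 counts fell on the shorter model, which held 4.86% of the counts of both in liver (4.42 to 5.33%).

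In the alternative pathway CFB and CFP were highest in liver and CFD in the intestine-labelled library. Factor B (CFB), which supplies the protease of the alternative C3 convertase, stood at 61.3, 9.32 and 485 FPKM in the order intestine-labelled, salivary glands, liver. It was 8-fold higher in liver than in the intestine-labelled library (7.61 to 8.40), and 6.15-fold higher in the intestine-labelled than in the salivary gland library (5.45 to 6.96). Factor D (CFD, gene7507, scaffold NW_016531917.1, 83747 to 85941), the protease that cleaves factor B, stood at 272, 10.4 and 28.3 FPKM, from 2384, 114 and 535 counts. The intestine-labelled library was the high one. By FPKM, though not by counts, CFD was its leading complement RNA, with 30.3% of complement FPKM. CFD was 7.54-fold higher there than in liver (6.87 to 8.30) and 23.5-fold higher than in the salivary glands (19.5 to 28.6). Properdin (CFP), which stabilises the convertase and is made by leukocytes, stood at 5.97, 1.92 and 11.8 FPKM. Its order was that of CFB, with liver 2.41-fold over the intestine-labelled library by TMM counts (1.93 to 3.04) but just under 2-fold, at 0.99 on the log2 scale, by deposited FPKM. All 3 genes of the pathway were thus at least 2-fold higher in the intestine-labelled than in the salivary gland library, except that CFP fell under this limit, at 0.93 on the log2 scale, when counts were scaled by library size only.

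The terminal complex was highest in liver for each of its 8 models, and several were not detected elsewhere. C9, which polymerises into the wall of the pore, had 3563 counts and 135 FPKM in liver and 0 counts in both other libraries, so that liver was at least 702-fold and 789-fold higher. C8 has an alpha, a beta and a gamma chain. C8A (gene13754) and C8B (gene13755), neighbours on scaffold NW_016537312.1, stood at 60.8 and 68.9 FPKM in liver. Outside liver C8A had 0 counts and C8B had 1, in the salivary gland library. A new gene of 257 bases with a C8A hit was listed at 329 FPKM in liver from 222 counts, and its model is the shortest of the complement genes. C8G, a lipocalin that is encoded apart from the other chains, stood at 1.45, 1.68 and 89.4 FPKM from 18, 21 and 1689 counts. It was thus detected in all libraries where C8A and C8B were at or near 0, and was 55.4-fold higher in liver than in the intestine-labelled library (35.0 to 93.8). Its model overlaps FBXW5 on the other strand by 2 bases.

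C6 and C7 bind C5b in turn. C6 had 0 counts in the intestine-labelled library, 51 in salivary glands and 1195 in liver (0, 1.31 and 24.2 FPKM). It was 15.6-fold higher in liver than in the salivary glands (11.8 to 21.0), and at least 15.1-fold higher in the salivary glands than in the intestine-labelled library. C7 was the member of the complex with the smallest folds. Its models gene15091, on the scaffold of C6, and gene5674, on another scaffold, stood at 12.2, 6.21 and 60.2 FPKM and at 4.28, 2.48 and 34.4 FPKM. Both kept the order liver, intestine-labelled, salivary glands, and liver was 4.86-fold (4 to 5.96) and 7.28-fold (5.90 to 9.09) over the intestine-labelled library.

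Among the soluble regulators, 6 of 7 were highest in liver. Factor I (CFI), the protease that destroys C3b and C4b, stood at 2.15, 4.21 and 98.7 FPKM in the order intestine-labelled, salivary glands, liver. Liver was the high library, 37.3-fold over the intestine-labelled library (27.5 to 51.9) and 18.7-fold over the salivary glands (15.3 to 23.3). Of the other libraries, CFI was 1.99-fold higher in the salivary glands (1.37 to 2.94), just under the 2-fold limit.

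Vitronectin (VTN), which keeps the C5b-7 complex off membranes, stood at 1.12, 1.01 and 161 FPKM. By TMM counts it was 41.0-fold higher in liver than in the intestine-labelled library (32.0 to 53.5), or 5.36 on the log2 scale, but the ratio of FPKM was 7.17 on that scale. Its model overlaps the gene of TMEM199 by 1835 bases on the other strand, which had 69, 203 and 235 counts. Clusterin (CLU, gene6410, scaffold NW_016531060.1, 495864 to 506142), a chaperone of many secretions that binds the C5b-9 complex, was the exception of the group. It stood at 242 FPKM in the intestine-labelled library, 1241 in salivary glands and 1038 in liver, from 3660, 23519 and 28644 counts. The salivary gland library was highest, where CLU ranked 39 among all genes. It was 1.24-fold over liver (1.22 to 1.26), under the 2-fold limit, and 5.72-fold over the intestine-labelled library (5.52 to 5.92).

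All 3 models of the membrane regulators CD59 and CD55 were highest in the salivary gland library, whereas CD46 and CSMD1, described below with the other genes of the pathway, were highest in liver. CD59, which blocks the joining of C9, stood at 55.4, 85.3 and 40.5 FPKM. Its range was narrow, with the salivary glands 2.40-fold over liver (2.17 to 2.65) and 1.63-fold over the intestine-labelled library (1.47 to 1.80). CD55, decay-accelerating factor, which breaks up the convertases, lay in the models gene15333, at 3.77, 7.68 and 0.653 FPKM, and gene19095, at 1.21, 4.07 and 0.943 FPKM. Liver was the lowest library for both, and the salivary glands were 10.8-fold (6.39 to 19.6) and 5.06-fold (2.53 to 11) over it. The liver values rest on 16 and 11 counts. For gene15333 the intestine-labelled library was 7.72-fold over liver (4.45 to 14.2).

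Receptors and binding proteins were low or even between libraries. C1QBP, a mitochondrial protein that binds C1q in vitro, stood at 27.6, 19.9 and 27.4 FPKM. CD93, an endothelial membrane protein named here as the C1q receptor, stood at 3.73, 2 and 3.45 FPKM. No pair of libraries differed by 2-fold for either gene. CR2, the C3d receptor of B cells, had 3 counts, all in liver, and the CR1-like gene had 2, 11 and 18 counts, too few to rank the libraries. The B cell marker MS4A1 had 7 counts, all in liver, although the 8 genes found for a plasma cell and B cell list summed to 169, 1664 and 1288 FPKM, most of it from XBP1.

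Of the 15 genes taken by wording, 8 act in DNA repair and 7 are other proteins. Of the 8 DNA repair genes, which act in excision repair and in the joining of broken ends, 2 were at least 2-fold higher in liver than in each of the other libraries, both models of XPG. This is 25.0% of them, near the backgrounds of 20.1% and 21.0%. The XPG models gene15240 and gene13045 stood at 8.76, 4.76 and 18.5 FPKM and at 6.65, 2.79 and 11 FPKM. XPC (gene11660) stood at 8.34, 16.0 and 8.74 FPKM and its short model gene18453 at 10.6, 15.5 and 5.62 FPKM, highest in the salivary glands. XRCC6 stood at 15.7, 23.5 and 19.9 FPKM, and the models of XRCC5 at 12.6, 12.3 and 28.8 FPKM (gene10198) and 6.83, 7.52 and 18.3 FPKM (gene6795). XPA ranged from 3.18 to 6.71 FPKM. Of the other 7, 5 had a count in liver or the intestine-labelled library, and 2 of these 5 (40%, background 20.1%) were at least 2-fold higher in liver, A1CF and a TMPRSS11E-like gene, and another 2 of 5 (background 23.8%) higher in the intestine-labelled library. A1CF, the cofactor of apolipoprotein B mRNA editing, stood at 0.0337, 0.0156 and 10.3 FPKM, and liver was 169-fold over the intestine-labelled library (57.5 to 819), from 3 and 856 counts. C1QL4, a C1q-like secreted protein outside complement, had 27, 1 and 0 counts, with 3.71 FPKM in the intestine-labelled library. PRG4 reached 1.56 FPKM in the salivary gland library and the TMPRSS11E-like gene 1.95 FPKM in liver, C1QL3 had at most 4 counts, and C1QL2 and PRSS57 had 0 counts in all libraries.

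Genes of the pathway that the wording missed were found by product name from a list of 24 symbols, 22 of which matched 27 genes in the tables. Of those with a count in the pair, 21 of 24 were at least 2-fold higher in liver than in the intestine-labelled library (background 20.1%) and 21 of 23 than in the salivary gland library (background 21.0%). In the opposite direction 1 of 24, C5AR2, was higher in the intestine-labelled library (background 23.8%) and 0 of 23 in the salivary gland library (background 22.1%). In the lectin pathway, ficolin-2 (FCN2) and MBL1, both sugar sensors, stood at 203 and 186 FPKM in liver and at 0 to 0.207 FPKM elsewhere. Their protease MASP2 lay in gene7475, at 4.10, 4.62 and 229 FPKM, and gene13298, at 1.14, 1.43 and 76.6 FPKM, and MASP1 stood at 1.38, 2.54 and 48.3 FPKM. Liver was the high library for each of these. FCN3 and COLEC11 had 0 counts in all libraries.

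The other regulators included the most abundant of these 27 genes. SERPING1, the C1 inhibitor, stood at 65.7, 25.8 and 739 FPKM. C4BPA, the main chain of the inhibitor of C4b, stood at 67.9, 2.80 and 326 FPKM (gene24118), and its partner C4BPB at 2.97, 0 and 93.5 FPKM. Both C4BP chains were higher in the intestine-labelled than in the salivary gland library, by 21.9-fold for C4BPA (16.3 to 30.1) and at least 10.9-fold for C4BPB. CPB2 and CPN1, carboxypeptidases that inactivate the anaphylatoxins, stood at 152 and 73.7 FPKM in liver with 0 counts elsewhere. CD46, the membrane cofactor of factor I, stood at 21.3, 12.6 and 60.2 FPKM (gene21695), so that this membrane regulator was 2.13-fold (1.92 to 2.35) and 3.65-fold (3.24 to 4.12) higher in liver, opposite to CD55 and CD59. CSMD1, a large membrane protein that inhibits complement in vitro, lay in 3 models that were also highest in liver, led by gene8932 at 0.110, 0.0989 and 3.79 FPKM and gene12444 at 0.0569, 0.140 and 2.81 FPKM.

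Receptors of the anaphylatoxins and of C3 fragments were low. ITGB2, the common chain of the leukocyte complement receptors, stood at 0.450, 0.506 and 13.7 FPKM, and VSIG4, the complement receptor of tissue macrophages, at 0.190, 0.652 and 9.93 FPKM. C3AR1 and C5AR1 reached 9 and 6.59 FPKM in liver and at most 1.26 FPKM elsewhere. The macrophage markers given above were highest in liver too, and their part in these values was not tested. C5AR2 had 13 counts in the intestine-labelled library and 0 in the others.

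Outside liver, the components did not fall to the same fraction of their liver level. For the 20 complement genes with at least 1000 counts in liver, the median FPKM was 2.69% of the liver value in the intestine-labelled library and 3.09% in the salivary gland library, with ranges of 0 to 23.3% and 0 to 120%. This limit picks genes that are high in liver, so low percents are partly built in. It leaves out CFD, at 959% and 36.6% of its liver FPKM, and CD59, at 137% and 211%, in the same order. It also leaves out both MBL2 genes, at 0 in both libraries. At least 10% was reached by 7 genes in the intestine-labelled library and by 2 in the salivary gland library, CLU and C1R. The share was not taken over all genes with at least 1000 liver counts, so these numbers have no background beside them. C9 and C8A (gene13754) were at 0 in both. C8B was at 0 and 0.0557% and C3 (gene13195) at 0.0770% and 0.0871%, in the order intestine-labelled, salivary glands, while C6 was at 0 in the intestine-labelled library only and C5 (gene3520) in the salivary gland library only. Among the hepatocyte markers FGB and FGG, with 305441 and 254227 counts in liver, had 0 counts in both other libraries and FGA had 2 and 5, while ALB stood at 20.5% and SERPINA1 at 2.64% of its liver FPKM in the intestine-labelled library, and at 0.0446% and 20.5% in the salivary gland library. Of the 12 genes of the hepatocyte list, 3 were at 0 in the intestine-labelled and 4 in the salivary gland library. What these markers imply for the complement genes was not tested.

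**Figure D5:**
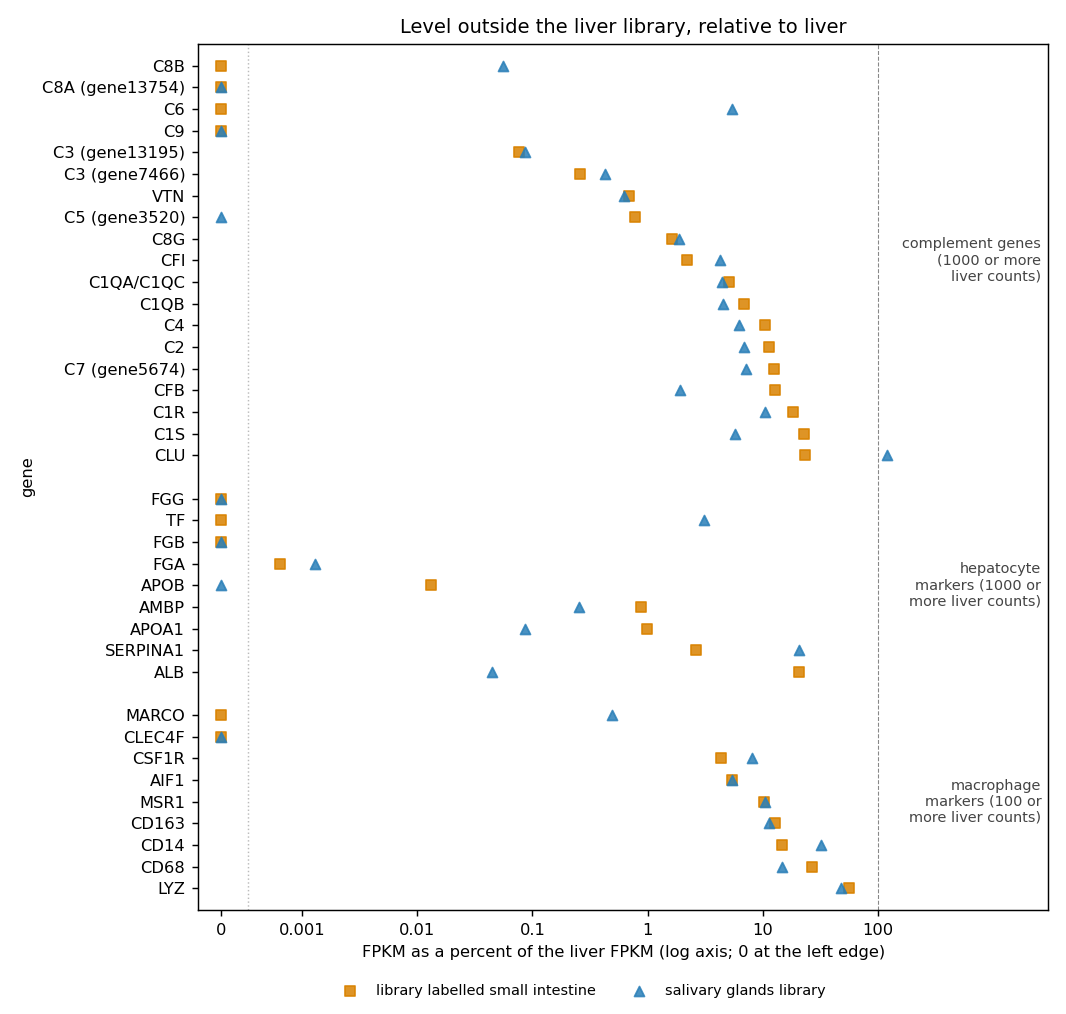
FPKM in the intestine-labelled (squares) and salivary gland (triangles) libraries as a percent of the liver FPKM (log axis, 0 at the left edge, dashed line at 100%), for the named complement genes and hepatocyte markers with at least 1000 liver counts and macrophage markers with at least 100, without a Kunitz inhibitor gene that shares the AMBP symbol. C3 lies near 0.0770 and 0.0871%, the classical pathway between 4.44 and 22.8%, and FGB and FGG at 0.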

How the data were processed

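Reads with adaptors or of low quality were discarded by the authors and the others aligned to the pangolin genome with TopHat2, without strand, and Cufflinks supplied the new genes, per the study's methods. The deposited gene count is a whole number that was not scaled between libraries, and the tool that made it is not given in the sources used here. The deposited FPKM values were computed by the authors from fragments, mapped fragments and transcript length. The study names RSEM only for its comparison of tissues, so the tool behind these values is not given in the sources used here. A score deposited by the authors, the count times a factor per library, was read only to check the counts. Positions are those of the deposited tables, whose build is not named, and RefSeq's gene table served only for names and neighbours. No sequences are printed, and some genes are counted in the totals but not reported here.

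Genes were assigned to roles by their product names. The members and lists were chosen with earlier results of these data known. Values were named for members with at least 10 FPKM in a library and the 2 highest of each role, and other members were added after their values were seen. TMM factors (0.851, 1.17 and 1.00 for small intestine, salivary glands and liver) came from edgeR 4.0.16 in R 4.3.3. Fold intervals are exact conditional intervals at 95% (scipy 1.17.1). A fold against 0 counts uses 3 counts per library and is a bound. Genes with at most 3 counts in both libraries were never called. The fold rule and a new script of DEGseq's MA-plot method were tested on simulated data. Figures were drawn with matplotlib 3.10.9. Alternatives were other scalings, thresholds and gene sets, 2 of them chosen after seeing the data: summed pieces of C5, C7 and C8A, and TMM factors without the intestine-labelled library.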

Additional observations from a re-analysis of the deposited data

How the results depend on the processing

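No paired analysis was possible because each tissue has 1 library, and no library could be left out of a pair. The counts of members at least 2-fold higher in liver, 34 of 52 over the intestine-labelled library and 33 over the salivary gland library, stayed within 1.5 times under other scalings, the FPKM ratio, DEGseq's q-value, a minimum of 10 counts, summed pieces and TMM factors without the intestine-labelled library. At 10-fold they were 22 and 27. Members higher in the intestine-labelled library than liver numbered 4, or 1 at 10-fold and 2 among complement genes only. Members higher in the salivary gland library than liver numbered 5, or 2 at 10-fold and 3 among complement genes only. Members higher in the intestine-labelled than the salivary gland library numbered 7, or 3 at 10-fold. In the opposite direction they numbered 8, or 13 with library size only, 1 at 10-fold and 5 among complement genes only. Library size only shifts all log2 folds of the intestine-labelled over the salivary gland library by -0.46, of liver over the intestine-labelled library by 0.24 and of liver over the salivary glands by -0.22. Members highest in the intestine-labelled library numbered 4, or 2 with library size only.

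Above 5 FPKM instead of 1, 20 members instead of 32 were counted in the intestine-labelled and 18 instead of 32 in the salivary gland library. The shares of all 52 members were 0.166%, 0.385% and 2.33% of counts and 0.136%, 0.267% and 1.06% of FPKM, in the order intestine-labelled, salivary glands, liver. Without the 10 most abundant genes in the denominator they were 0.288%, 0.481% and 2.73% of counts and 0.259%, 0.443% and 1.49% of FPKM. For complement genes only they were 0.152%, 0.358% and 2.30% of counts and 0.125%, 0.252% and 1.04% of FPKM. Of the 31 complement genes named for at least 10 FPKM in a library, 24 had counts in both libraries of a pair, giving 66 log2 folds. Folds against 0 counts were not recomputed. Of 198 values for the 66, by library size, upper quartile scaling or FPKM, 4 changed sign, all under 2-fold. They were C1QA/C1QC, VTN and C1QBP between the intestine-labelled and salivary gland libraries, and C1QBP between liver and the intestine-labelled library. A further 7 crossed the 2-fold limit, among them CFI, CFP and CD59 between the intestine-labelled and salivary gland libraries. CFP then fell below the limit, at 0.93 on the log2 scale with library size only, and at 0.99 for liver over the intestine-labelled library from FPKM. From FPKM the log2 folds of VTN moved from 5.36 to 7.17 for liver over the intestine-labelled library and from 5.34 to 7.32 over the salivary glands, and the cause was not tested. With 1 library per tissue, depth limits only how low a level could be seen, and the spread between animals is unknown.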

Other observations

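The split of counts between models that share a product name was compared across libraries. Of the counts of both C3 models, gene7466 held 17.8% in the intestine-labelled library (95% exact interval 10.9 to 26.7%), 23.4% in the salivary gland library (16.8 to 31.2%) and 7.44% in liver (7.31 to 7.57%). The interval of liver overlaps neither of the others, which overlap each other. For C7, gene15091 held 54.8% (47.8 to 61.7%), 52.2% (43.4 to 60.9%) and 44.7% (42.6 to 46.9%), in the same order, and the interval of liver overlaps that of the salivary glands. For CD55, gene15333 held 88.0% (79.0 to 94.1%), 75.7% (68.0 to 82.2%) and 59.3% (38.8 to 77.6%), and neighbouring intervals overlap. These intervals cover counting error only, and whether the models are pieces of 1 gene was not tested.

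Genes whose products work as partners were also set side by side. C1R was 0.537 times C1S by FPKM in the intestine-labelled library, 1.22 times in the salivary gland library and 0.671 times in liver. C1QB was 1.02, 0.757 and 0.754 times the C1QA/C1QC model, in the same order. C8A (gene13754) and C8G were 0.881 and 1.30 times C8B in liver.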
